A study of Homo sapiens with 12 samples.

Results

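The PARP family and its partner DTX3L were followed through 10 genes, called members below: PARP9, DTX3L, PARP10, PARP12, PARP14, PARP3, PARP8, PARP11, PARP1 and PARP2. They were taken by name from a table of 43769 genes counted in 12 RNA-sequencing libraries, and all 10 were among the 15828 genes with enough counts to be tested. The libraries come from SK-N-DZ, a neuroblastoma cell line that is MYCN amplified and wild-type for ARID1A, carrying a doxycycline-inducible hairpin against ARID1A (shARID1A) on a lentiviral vector. The paper describes a clonal line but does not say which clone or hairpin was sequenced. The groups are taken to share 1 clone, which the labels do not state, so values describe those cells only. There were 4 groups with 3 replicates each: untreated cells labelled WT (C), cells given doxycycline for 4 days and labelled shARID1A (D), cells labelled WT that received IFNγ for 24 hours (I), and cells labelled shARID1A that received doxycycline for 4 days with IFNγ for 24 hours (DI). No library had doxycycline without the hairpin, so an effect of the drug cannot be told apart from that of the hairpin or of lower ARID1A. Nothing in the labels says whether the replicates were separate cultures, so p-values measure the spread between these libraries only.

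PARP proteins transfer ADP-ribose from NAD onto proteins. PARP1 and PARP2 build long chains at DNA breaks and recruit the repair machinery, while most other members attach a single unit or, like PARP9, show little activity of their own. IFNγ acts through its receptor, the kinases JAK1 and JAK2 and transcription factors that bind GAS elements in DNA. IRF1 is induced early in this response and binds interferon-stimulated response elements (ISREs). Several PARP genes are known interferon-stimulated genes with roles in antiviral defence. PARP9 binds DTX3L, a ubiquitin ligase of the Deltex family, and the pair acts in the DNA damage and interferon responses.

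The promoters of PARP9, DTX3L, PARP14 and PARP12 are shown first because each holds a close match to an element that interferon signalling uses, and those of PARP1 and PARP2 are shown beside them for comparison. Sequences are from RefSeq (GRCh38.p14) and are written 5′ to 3′ on the strand of the gene, with position 1 as the first transcribed base and −1 the base before it. Capitals mark a match, on either strand, to the ISRE core GAAANNGAAA or to the GAS element TTCNNNGAA. PARP9 and DTX3L start 38 bases apart and run in opposite directions, so the first 2 lines are the 2 strands of the same interval, chr3:122564280-122564355. The others are chr3:122680759-122680848 (plus strand, PARP14), chr7:140062942-140063031 (minus strand, PARP12), chr1:226408084-226408173 (minus strand, PARP1) and chr14:20343465-20343554 (plus strand, PARP2).
PARP9: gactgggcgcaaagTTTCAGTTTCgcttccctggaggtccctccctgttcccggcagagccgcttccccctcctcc
DTX3L: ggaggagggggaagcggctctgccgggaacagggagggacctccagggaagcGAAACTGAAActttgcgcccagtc
PARP14: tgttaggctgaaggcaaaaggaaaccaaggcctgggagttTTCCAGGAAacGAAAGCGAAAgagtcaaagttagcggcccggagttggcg
PARP12: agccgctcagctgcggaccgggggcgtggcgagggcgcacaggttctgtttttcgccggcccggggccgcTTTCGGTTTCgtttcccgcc
PARP1: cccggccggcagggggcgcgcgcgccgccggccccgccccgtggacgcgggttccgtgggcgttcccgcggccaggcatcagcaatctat
PARP2: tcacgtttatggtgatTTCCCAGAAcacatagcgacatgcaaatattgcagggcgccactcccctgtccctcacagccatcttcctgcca

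The single ISRE match between PARP9 and DTX3L, GAAACTGAAA at chr3:122564332-122564341, lay at −41 to −32 of PARP9 and at −6 to 4 of DTX3L. PARP14 had GAS and ISRE matches next to each other, TTCCAGGAA at −40 to −32 and GAAAGCGAAA at −29 to −20. In PARP12 the ISRE match, GAAACCGAAA on the opposite strand, lay at −10 to −1. Windows from 250 bases before to 50 bases after the start were available for 9 members, 12 windows in all. PARP10 had no window, so its promoter was not searched. A GAS match lay at −154 to −146 of PARP2, and the windows of PARP1, PARP3, PARP8 (3 windows), PARP11 and the PARP9 start farther from DTX3L held neither motif. Over all 35116 RefSeq promoter windows of this length, searched on both strands, 3.57% held the ISRE core and 7.66% the GAS element. A match describes letters and is not a measured binding site.

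**Figure D1:**
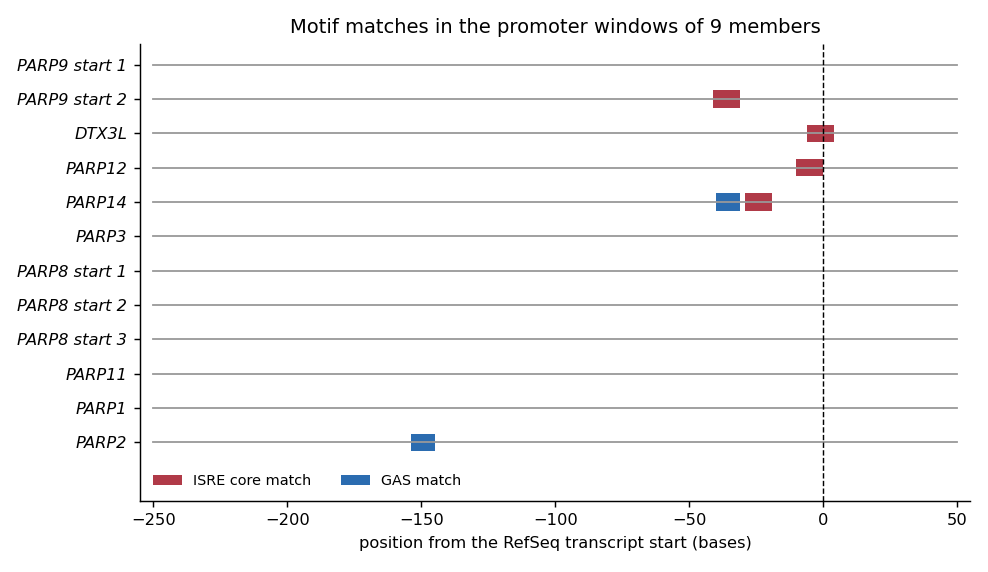
Positions of ISRE core matches (red) and GAS matches (blue) in the 12 promoter windows of 9 members, plotted in bases from the RefSeq transcript start (dashed line). PARP9 start 2 is the start that faces DTX3L, and start 1 lies farther from it. The ISRE matches of PARP9, DTX3L, PARP14 and PARP12 all lie within 41 bases of the start.

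Depth ranged from 16469832 to 21790869 counts per library, so that 3 counts correspond to 0.135 to 0.187 CPM (counts scaled to a common, TMM-normalised library size). Noradrenergic neuroblastoma markers such as HAND2 and DBH summed to 3969 to 4870 CPM per library. Summed markers of leukocytes, endothelium and epithelium were between 0.116 and 2.95 CPM, with CD3E, PECAM1, KRT18 and CDH1 at 3 counts or fewer in every library. Schwann cell markers summed to 1.60 to 10.9 CPM and fibroblast markers to 12.3 to 65.8 CPM. ARID1A, the targeted gene, had 165 to 197 CPM in C and 158 to 197 CPM in D, with a log2 fold change of −0.09 (edgeR adjusted p = 0.788), so a lower level was not detected in the libraries labelled D, and D and DI are used below as labels only. In DI it had 133 to 151 CPM against 192 to 202 CPM in I (−0.44, adjusted p = 0.115, and 0.011 when edgeR took the replicate number as a block), and it passed in DESeq2. The 13 mitochondrially encoded mRNAs held a smaller share of the counts in the doxycycline libraries, 0.856 to 1.30% (D) and 0.768 to 2.58% (DI), than in the others, where it was 3.35 to 4.99% (C) and 2.90 to 4.42% (I).

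The first question was which members responded to IFNγ in cells without doxycycline (I against C). PARP9, DTX3L, PARP10, PARP12 and PARP14 rose 39.5- to 144-fold, and no member fell. The other 5 members did not pass the test, with log2 fold changes between −0.20 (PARP2) and 1.22 (PARP8). The count of 5 of 10 members higher stands beside 2.10% of all tested genes called higher and 0.114% called lower. The median log2 fold change was 3.26 over the members and −0.01 over all tested genes. In bulk RNA, fewer cells expressing a gene and less RNA per cell cannot be told apart.

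PARP9 (chr3:122527924-122564577, minus strand), the macrodomain partner of DTX3L, had 5.16, 9.53 and 2.80 CPM in C replicates 1 to 3 and 222, 211 and 266 CPM in I. All IFNγ libraries were far above all controls, although the controls themselves spread more than 3-fold, with replicate 2 highest. The log2 fold change was 5.30 (SE 0.36), or 39.5-fold (95% interval 22.7 to 68.6, edgeR adjusted p = 5.8e-06). DTX3L (chr3:122564238-122575203, plus strand) had 3.99, 6.40 and 3.74 CPM in C and 196, 233 and 245 CPM in I. The groups were again widely separated, and the log2 fold change of 5.56 (SE 0.21) was a 47.3-fold rise (34.2 to 65.5, adjusted p = 7.5e-08). In the GENCODE 29 annotation (GRCh38) the bodies of this pair overlap by 340 bases and share 217 exonic bases on opposite strands, 2.43% of the exonic bases of PARP9 and 3.70% of those of DTX3L. Whether reads were counted by strand is not given in the sources used here, so reads from that stretch may have been split between the pair.

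PARP14 (chr3:122680618-122730840, plus strand), a large macrodomain enzyme that attaches single ADP-ribose units, had 3.87, 3.72 and 1.62 CPM in C. With IFNγ it reached 471, 466 and 405 CPM, so that each IFNγ library stood far above each control. Its log2 fold change of 7.17 (SE 0.35) was the largest among the members, a 144-fold rise (84.4 to 247, edgeR adjusted p = 5.5e-07).

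PARP10 and PARP12 are single-unit transferases, PARP12 being a zinc finger protein with antiviral activity. PARP10 (chr8:143977153-144012772, minus strand) had 2.15, 1.74 and 2.30 CPM in C and 73.6, 95.2 and 77.7 CPM in I. It rose by a log2 fold change of 5.32 (SE 0.36), or 39.8-fold (23.1 to 68.6, edgeR adjusted p = 5.1e-06). On the opposite strand PARP10 shares 324 exonic bases with GRINA, 5.37% of its exonic bases, and 197 with SPATC1, 3.27%. GRINA had a log2 fold change of 0.50 (edgeR adjusted p = 0.117) in the same comparison. Since the strand setting is not given, reads from these stretches may have been assigned to either gene. PARP10 rests on 35 to 37 counts per library in C, and the part of GRINA reads in them was not tested. PARP12 (chr7:140023744-140063721, minus strand) had 2.70, 1.24 and 2.74 CPM in C and 86.2, 117 and 111 CPM in I. This was a log2 fold change of 5.57 (SE 0.32), or 47.5-fold (29.2 to 77.3, adjusted p = 1.4e-06).

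**Figure D2:**
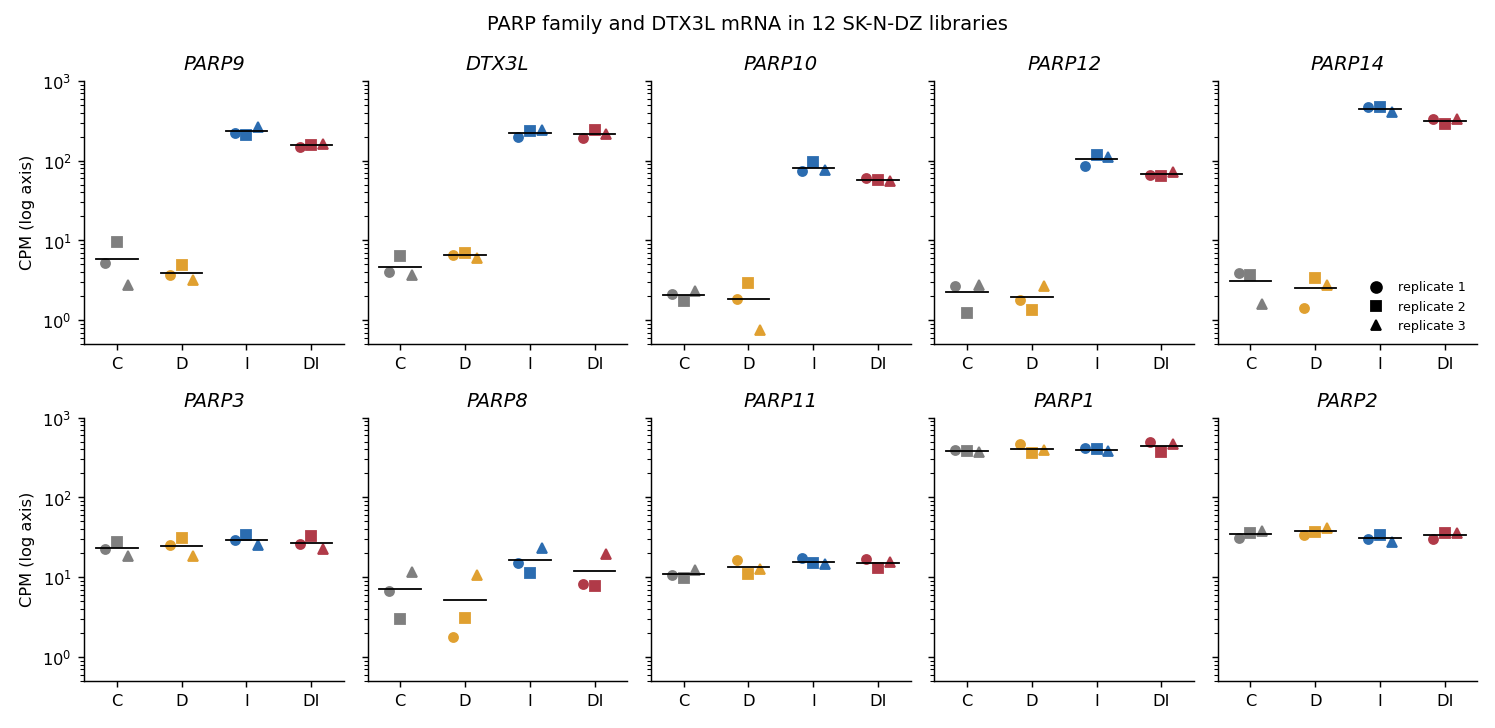
CPM (log axis) of the 10 members in each library of C (untreated), D (doxycycline), I (IFNγ) and DI (both), with the shape giving the replicate number and the bar the mean of 3. The upper row rises from under 10 CPM to between 55.2 and 471 CPM with IFNγ, while PARP1 stays between 358 and 497 CPM in all 12 libraries.

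The remaining 3 members named as interferon responsive moved little in comparison. PARP3 (chr3:51942345-51948867, plus strand), which acts in double-strand break repair, had 22.3, 27.9 and 18.6 CPM in C and 28.9, 34.2 and 25.2 CPM in I, and the groups overlapped. Its log2 fold change was 0.36 (SE 0.22, edgeR adjusted p = 0.887). PARP11 (chr12:3791047-3873448, minus strand), a single-unit transferase linked to the nuclear envelope, had 10.6, 9.73 and 12.4 CPM in C and 17.4, 14.9 and 14.8 CPM in I. Its 3 IFNγ libraries were all above the 3 controls, as were those of 8.83% of all tested genes, with a log2 fold change of 0.53 (SE 0.18, unadjusted p = 0.0147, adjusted p = 0.320).

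PARP8 (chr5:50665899-50846522, plus strand), a little-studied member, had 6.70, 2.98 and 11.8 CPM in C and 15.1, 11.3 and 23.4 CPM in I. Replicate 3 was the highest library of PARP8 in all 4 groups, and its groups overlapped. The log2 fold change was 1.22 (SE 0.67, edgeR adjusted p = 0.807). Same-numbered libraries deviated together across groups, and with the replicate number as a block PARP8 (1.34, adjusted p = 0.0301), PARP3 (0.37, 0.0356) and PARP11 (0.52, 0.0432) also passed in edgeR, so that 8 of 10 members were called higher. The block raised the calls over all tested genes as well, to 4.88% higher and 1.14% lower. None of these 3 passed at 0.01, while the 5 strongly induced members passed at 0.01 with and without the block.

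PARP1 and PARP2, the DNA damage members, give the reference for this comparison. PARP1 (chr1:226360691-226408079, minus strand) had 389, 378 and 376 CPM in C and 413, 402 and 383 CPM in I. The groups overlapped and the log2 fold change was 0.07, with a 95% interval of −0.21 to 0.35 (edgeR adjusted p = 1.00). PARP2 (chr14:20343582-20357905, plus strand) had 31.4, 36.3 and 37.9 CPM in C and 30.3, 33.8 and 27.9 CPM in I, a log2 fold change of −0.20 (−0.48 to 0.08, adjusted p = 0.915). The intervals of PARP1 and PARP2 leave room for changes of at most 1.27-fold upward, against at least 22.7-fold for each of the 5 induced members.

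The second question was whether the same members responded in cells given doxycycline (DI against D). The same 5 members rose and no member fell, with 1.67% of all tested genes called higher and 0.0505% lower. PARP14 went from 1.43, 3.36 and 2.78 CPM in D to 333, 291 and 331 CPM in DI, a log2 fold change of 6.98 (SE 0.35, edgeR adjusted p = 6.6e-07). PARP9 went from 3.72, 4.86 and 3.18 CPM to 149, 156 and 161 CPM (5.31, SE 0.37, adjusted p = 7.0e-06). DTX3L went from 6.62, 6.88 and 6.02 CPM to 192, 240 and 216 CPM (5.05, SE 0.21, adjusted p = 1.7e-07).

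For all 5 members the libraries with IFNγ were again far above those without. PARP12 had 1.81, 1.34 and 2.72 CPM in D and 65.9, 65.2 and 72.9 CPM in DI (5.12, SE 0.31, edgeR adjusted p = 3.0e-06). PARP10 had 1.86, 2.95 and 0.752 CPM in D and 61.2, 57.8 and 55.2 CPM in DI (4.95, SE 0.35, adjusted p = 8.2e-06). PARP10 in D replicate 3 rested on 13 counts, the fewest of any member in any library.

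PARP8 had 1.76, 3.05 and 10.5 CPM in D and 8.31, 7.79 and 19.8 CPM in DI. The difference within each replicate was upward, and the log2 fold change of 1.23 (SE 0.68, edgeR adjusted p = 1.00) passed only with the replicate block (1.37, adjusted p = 0.0373), which brought the count to 6 of 10 beside 3.77% of all tested genes higher and 0.695% lower. Without D replicate 3 the value was 2.32 (adjusted p = 0.221), and it lay between 0.66 and 2.32 as single libraries were left out. PARP3 (25.2, 31.1 and 18.5 CPM in D, 26.3, 32.4 and 22.6 CPM in DI), PARP11 (16.4, 10.9 and 12.7, then 17.0, 13.0 and 15.6 CPM), PARP1 (474, 358 and 396, then 497, 370 and 467 CPM) and PARP2 (33.6, 37.3 and 41.6, then 30.3, 35.9 and 35.4 CPM) overlapped between D and DI. Their log2 fold changes were 0.12, 0.19, 0.12 and −0.15, and none passed with or without the block.

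**Figure D3:**
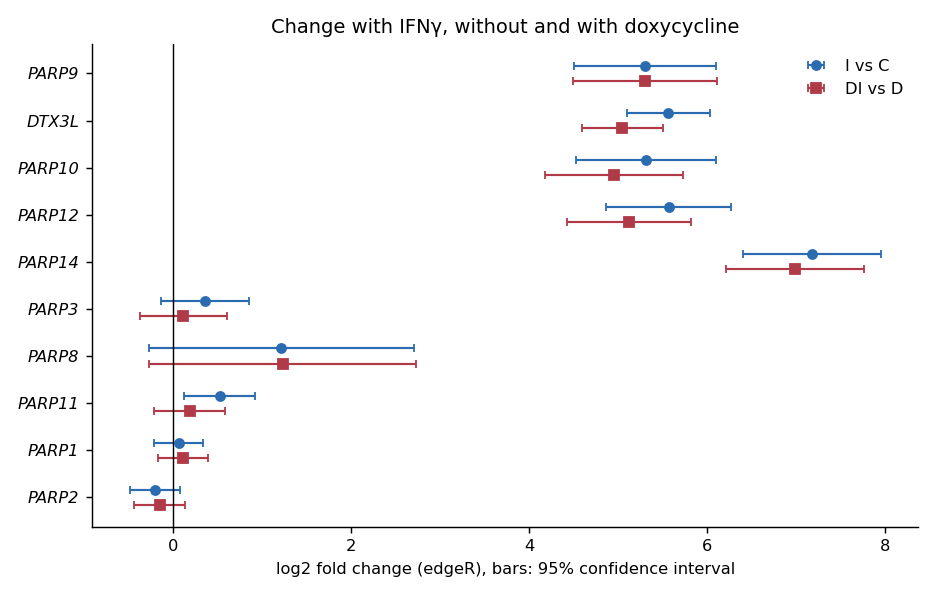
log2 fold change of the 10 members with IFNγ in cells without doxycycline (I vs C, circles) and with it (DI vs D, squares), with 95% confidence intervals from edgeR. The first 5 members lie between 4.95 and 7.17, and the intervals of the other 5 cross 0 except that of PARP11 in I vs C.

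PARP1 and PARP2 also served as internal references within each library. The log2 ratio of each of the other 8 members to PARP1 and to PARP2 gave 16 ratios, each tested for the change with IFNγ by an exact two-sided permutation test within the doxycycline states (400 arrangements, smallest possible p = 0.005). The values are differences of log2 count ratios with IFNγ minus without. This test did not use the replicate numbers as pairs, and no share over all tested genes is given for it. For PARP9, DTX3L, PARP10, PARP12 and PARP14 the change lay between 5.13 and 7.33 against either reference, each at exact p = 0.005 and without overlap in both doxycycline states. PARP14 relative to PARP1 went from −7.04 ± 0.68 in C to 0.16 ± 0.07 in I and from −7.41 ± 0.85 in D to −0.47 ± 0.12 in DI (SD, n = 3).

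The ratio changes of the other 3 members were smaller, and each also carries the change of its reference. The log2 fold changes of PARP2 were −0.20 (I against C) and −0.15 (DI against D), and those of PARP1 were 0.07 and 0.12. PARP8 changed by 1.33 against PARP1 (exact p = 0.04) and by 1.60 against PARP2 (exact p = 0.015). PARP11 changed by 0.27 (exact p = 0.015, and 0.0625 in the paired form of the exact test, where 0.03125 is the smallest possible) and 0.54 (exact p = 0.02). PARP3 changed by 0.16 against PARP1 (exact p = 0.445) and by 0.43 against PARP2 (exact p = 0.04). These p-values were not adjusted over the 16 ratios, and leaving out single libraries took PARP8 against PARP1 to an exact p of 0.055 to 0.09 in 9 of 12 cases and PARP3 against PARP2 to an exact p of 0.05 to 0.11 in 8 of 12. PARP11 against PARP2 had an exact p of 0.05 in 3 of 12, without D replicate 2, D replicate 3 or DI replicate 1.

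The order of levels was read per kilobase of exon, since gene lengths differ. In C, PARP1 was highest at 53.2 CPM per kb, followed by PARP2 (8.60) and PARP3 (7.83), whose ranges overlapped. PARP11 had 1.76 CPM per kb, and DTX3L (0.803), PARP8 (0.711), PARP9 (0.652), PARP12 (0.355), PARP10 (0.342) and PARP14 (0.293) each overlapped their neighbour. PARP14 thus had the lowest mean per kb in untreated cells, though its range overlapped that of PARP10. The order of the means in D was the same as in C.

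With IFNγ the order changed. PARP1 remained first at 55.7 CPM per kb in I, and PARP14 (42.6) and DTX3L (38.3) came next with overlapping ranges. PARP9 (26.0), PARP12 (16.7) and PARP10 (13.6) followed, the last pair overlapping, and all stood above PARP3 (10.1), PARP2 (7.48), PARP11 (2.53) and PARP8 (1.65). In DI, DTX3L (36.8) stood above PARP14 (30.3) without overlap, but below it when the longest annotated transcript was taken as the length. That choice of length moved the rank of 5 members in each of C and DI and of 2 in each of D and I.

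The third question was whether the IFNγ-induced levels differed between DI and I. No member passed in either direction by edgeR or DESeq2, and 1 had an unadjusted edgeR p under 0.05, against 0.101% of all tested genes called higher and 0.569% lower. PARP12, PARP9, PARP10 and PARP14 had all 3 DI libraries below all 3 I libraries, as did 8.41% of all tested genes. Their log2 fold changes were −0.63 (SE 0.25, 95% interval −1.18 to −0.07, adjusted p = 0.348), −0.58 (SE 0.30, −1.23 to 0.07, 0.478), −0.50 (SE 0.28, −1.13 to 0.13, 0.541) and −0.49 (SE 0.26, −1.06 to 0.08, 0.505). PARP12 had the lowest unadjusted p, 0.0308, and with the replicate block its adjusted p was 0.0526. The block gave edgeR adjusted p-values of 0.137 for PARP9, 0.151 for PARP14 and 0.159 for PARP10. With it 4 members had an unadjusted p under 0.05 and none passed, beside 1658 of all 15828 tested genes called.

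DTX3L had overlapping groups in DI and I, and its log2 fold change was −0.06 (−0.43 to 0.32, edgeR adjusted p = 0.946). PARP1 and PARP2 had log2 fold changes of 0.16 and 0.14, and PARP3, PARP8 and PARP11 had −0.12, −0.47 and −0.05. By direction 8 of 10 members were lower, with a median of −0.30 against −0.01 over all tested genes. GRINA, which shares exonic bases with PARP10, had −0.47 (adjusted p = 0.174). For the 13 mitochondrial mRNAs the same comparison gave a median of −1.40 on the log2 scale, with ND4L, ND5 and ND6 called lower (12 of 13 with the replicate block), and their part in the members' values was not tested.

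Without IFNγ (D against C) no member passed either by edgeR or DESeq2, and 1 had an unadjusted edgeR p under 0.05, with 0.493% of all tested genes called higher and 0.733% lower. The members divided evenly, with 5 higher and 5 lower and a median of −0.02. DTX3L had the lowest unadjusted p at 0.0386, with a log2 fold change of 0.46 (SE 0.19, edgeR adjusted p = 0.315, and 0.0662 with the replicate block). PARP9 had −0.58 (SE 0.34, adjusted p = 0.488), and C and D overlapped for both. The mitochondrial mRNAs had a median of −1.96 here, with 6 of 13 called lower (13 of 13 with the block), and their part was not tested here either.

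The IFNγ response itself was compared between the doxycycline states by an interaction term in edgeR. No gene passed and no member had an unadjusted p under 0.05, so the share called was 0% higher and 0% lower, with 32 genes higher and 67 lower at an unadjusted p under 0.05 and 1 gene called by DESeq2. The interaction of DTX3L was −0.52 (95% interval −1.08 to 0.05, unadjusted p = 0.0711) and that of PARP14 −0.19 (−1.12 to 0.74). The interval of PARP14 leaves room for a difference of up to 2.17-fold in the response. For PARP9 the interaction was 0.00, with an SE of 0.42 with the replicate block and 0.46 by DESeq2. Its SE in the main fit, 0.36, is derived from so small a value that it may be too low, so no interval is given.

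**Figure D4:**
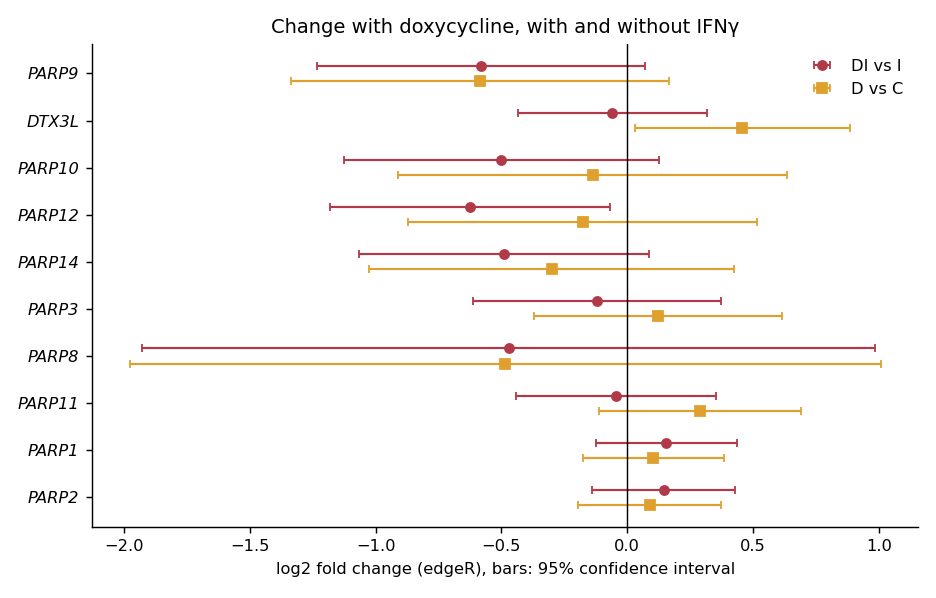
log2 fold change of the 10 members with doxycycline in cells with IFNγ (DI vs I, circles) and without it (D vs C, squares), with 95% confidence intervals from edgeR. All intervals except those of PARP12 in DI vs I and DTX3L in D vs C include 0, and no member passed after adjustment.

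PARP9 and DTX3L were set against each other because the proteins work as a pair and the genes share a promoter region. This ratio was chosen after the values were seen, so it is given without a test. The count ratio of PARP9 to DTX3L was 1.29, 1.49 and 0.750 in C replicates 1 to 3 and 0.561, 0.707 and 0.529 in D. Among the IFNγ libraries it was 1.13, 0.903 and 1.09 without doxycycline (I) and 0.778, 0.651 and 0.749 with it (DI). The doxycycline libraries were lower than those without doxycycline in each IFNγ state with no overlap, although C replicate 3 (0.750) was close to D replicate 2 (0.707). The share of other gene pairs that separate in this way is not given. Taken singly, 8.41% of all tested genes had all 3 DI libraries below all 3 I libraries. Neither PARP9 nor DTX3L passed by edgeR or DESeq2 in D against C or in DI against I.

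Without IFNγ the mean ratio was 1.18 ± 0.38 (C) and 0.599 ± 0.095 (D), and with IFNγ it was 1.04 ± 0.12 (I) and 0.726 ± 0.067 (DI; SD, n = 3 each). The ratio in I lay within the range of C, and DI overlapped D. Since the genes differ in length, the ratio is read as a change between groups and not as a comparison of their levels.

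**Figure D5:**
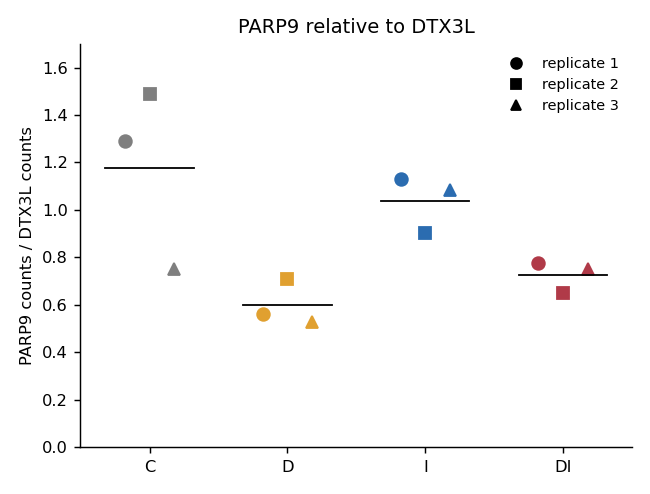
Ratio of PARP9 counts to DTX3L counts in each library, with the shape giving the replicate number and the bar the group mean. The D and DI libraries (0.529 to 0.778) lie below the C and I libraries of the same IFNγ state. The ratio was chosen after the values were seen, was not tested, and has no share of other gene pairs beside it.

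The members' profiles were compared with those of all other tested genes by Pearson's r of log2(CPM + 1) over the 12 libraries, which fall into separate sets with and without IFNγ. The genes outside the members most like PARP9 were HLA-E (r = 0.996), PSME2 (0.995) and B2M (0.994), which act in class I antigen presentation. PARP14 was number 3 of 15827 genes and DTX3L was number 22 (0.988). The genes most like PARP14 were TAP1, a peptide transporter, GBP1, an interferon-induced GTPase, and IRF1 (each 0.997). PARP1 was number 3462 for PARP9 (0.25) and PARP2 number 15270 (−0.60).

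PARP9, DTX3L and PARP14 lie close together on chromosome 3, with PARP15 between DTX3L and PARP14. PARP15 had at most 24 counts in any library and was not tested. Of the other genes within 200 kb of these members, 9 were tested, among them KPNA1, WDR5B, FAM162A and HSPBAP1, and none passed by edgeR or DESeq2 in the 4 comparisons between groups (1 had an unadjusted edgeR p under 0.05 in DI against D and 1 in D against C), with log2 fold changes of −0.27 to 0.34 in I against C. Around all members 47 neighbours were tested and 0 were called by edgeR in those comparisons. At an unadjusted edgeR p under 0.05 there were 1 in I against C, 2 in DI against D, 3 in DI against I and 7 in D against C, and DESeq2 called 1 in I against C and 1 in DI against I. With the replicate block edgeR called 1, 1, 3 and 6 of the 47 in these comparisons, in the same order. Over all 15828 tested genes the block gave 953, 706, 1658 and 2200 calls.

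Among the other PARP family genes, 7 of 8 were tested and ZC3HAV1, a zinc finger antiviral protein, rose in both states by log2 fold changes of 1.26 (edgeR adjusted p = 0.000315) and 1.28 (0.000337). PARP4, the vault PARP, had 0.51 in I against C (adjusted p = 0.275) and 0.41 in DI against D (0.619), and passed only with the replicate block (0.0159 and 0.0438). TNKS, TNKS2, PARP6, TIPARP and PARP16 did not pass in either state, and no gene of this family passed in DI against I or D against C.

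The receptor pathway that IFNγ uses was measured through 10 genes. In both states 7 rose and none fell, and among them were IRF1 (log2 fold change 7.58 in I against C), SOCS1 (5.89), a feedback inhibitor, and JAK2 (2.89). IRF9, STAT2 and STAT3 rose as well, while the receptor genes IFNGR1 (0.03) and IFNGR2 (0.29) and JAK1 (0.24) did not pass, except that IFNGR2 did with the replicate block (edgeR adjusted p = 0.0429). In D against C, IRF9 had 1.42 (0.115) and passed with the block (0.0259), which called 2200 of all 15828 tested genes there. In DI against I none of the 10 passed by edgeR or DESeq2 (4 had an unadjusted edgeR p under 0.05), with a median of −0.24 and 8 lower.

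Genes that handle ADP-ribose and NAD were measured next. Of 10 genes that remove ADP-ribose or assist PARP1, such as PARG and HPF1, none passed in any comparison without the replicate block. With it MACROD1, which removes single ADP-ribose units, was lower in DI against I (−0.52, edgeR adjusted p = 0.0107) and in D against C (−0.50, 0.0102). Over all 15828 tested genes the block called 953 in I against C and 706 in DI against D. It called 1658 in DI against I and 2200 in D against C. Of 10 tested NAD genes, NAMPT, the rate-limiting enzyme of NAD salvage, rose in I against C by 0.85 (edgeR adjusted p = 0.0464) and had 0.67 in DI against D (0.191). With the replicate block NMNAT2 (0.00328), CD38 (0.0411) and NNMT (0.0217) also passed in I against C, making 4 higher, and CD38 (0.0196) and NNMT (0.0295) passed in DI against D. NAPRT was higher in DI against I with the block (1.25, 0.0317).

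The repair partners and other Deltex ligases were close to 0 with IFNγ. None of the 10 tested single-strand break repair genes, such as XRCC1 and LIG3, and none of DTX1, DTX2, DTX3 and DTX4 passed in any comparison without the block, and with it DTX1 was lower in DI against I (−0.74, edgeR adjusted p = 0.0140). Of 9 tested end joining genes none passed with IFNγ by edgeR or DESeq2, and PRKDC, the catalytic subunit of DNA-dependent protein kinase, was higher in D against C by 0.75 (adjusted p = 0.0225). With the block DCLRE1C (0.0130) and TP53BP1 (0.00734) passed there as well, and PRKDC was higher in DI against I (0.51, 0.00399). These calls with the block stand beside 2200 of all 15828 tested genes called in D against C and 1658 in DI against I.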

How the data were processed

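RNA from 12 SK-N-DZ libraries was sequenced (Illumina NovaSeq, paired ends). The deposited unit was raw counts per gene, made by the authors. The aligner, counter, genome build and strand setting are not given in the sources used here, and the submitters' processing notes name DESeq2 without a version. The deposited comparison tables, which hold the authors' fold changes and p-values and 18 columns of per-library values that match no label, were not used.

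Genes kept by filterByExpr (minimum count 10) numbered 15828 of 43769. Libraries were scaled by TMM and tested with edgeR 4.0.16 (R 4.3.3) quasi-likelihood tests over all 12 libraries, with Benjamini-Hochberg adjustment over all tested genes and a threshold of 0.05. CPM used the TMM-scaled library size. Ratios used log2(count + 0.5). Scripts were tested on simulated data. Alternatives were the scaling, the filter, DESeq2 1.42.0, the replicate block, fewer libraries and a threshold of 0.01. Leaving out 1 replicate number from every group was added after the data were seen.

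The deviations of same-numbered libraries from their group means correlated at r = 0.338 to 0.804 over genes (18 pairs). Those of other numbers correlated at −0.628 to 0.143 (36 pairs). Libraries sharing a number were treated as pairs only in the replicate block and in the paired form of the exact test. The main edgeR tests and the main exact permutation test did not use the replicate numbers, so their p-values are unpaired. Libraries of a group differed by far more than sampling noise (chi-square per gene 18.4 to 78.6). All gene IDs matched GENCODE 29, which gave positions and lengths. The members and gene lists were chosen with earlier results of these data known. All 10 members are named, and of the lists, the genes called in I against C or DI against I (at most 4 by size, or all where 5 or fewer were called). A few others were named after their values were seen. Some genes that this rule covers are not reported here.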

Additional observations from a re-analysis of the deposited data

How the results depend on the processing

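The calls of the 5 induced members in both IFNγ comparisons, and the counts of 0 in DI against I, D against C and the interaction, held under every scaling, filter, tool, threshold and left-out library tried. With the replicate block the count in I against C was 8 (PARP3, PARP8 and PARP11 added), and that in DI against D was 6 (PARP8 added). The block changed no other call of a member. The number of ratios to PARP1 or PARP2 with an exact permutation p under 0.05 was 15 of 16, and 12 to 14 under the left-out libraries and the block. These p-values were not adjusted, each member counts against both references, and no share over all tested genes is given for this test. Untreated levels of the 5 induced members rest on 25 to 192 counts per library in C and 13 to 139 in D, which limits how closely C and D can be compared.

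Some values that had not passed the test changed sign, and did not pass with the other sign either; the cause was not tested. With library size alone DI against I became 0.0339 for DTX3L and 0.0459 for PARP11, and with the block the interaction of PARP9 became −0.0197. Leaving out single libraries gave −0.144 to 0.022 for DTX3L and −0.133 to 0.0536 for PARP11 in DI against I, and −0.0535 to 0.311 for PARP3 in DI against D. In D against C it gave −0.625 to 0.219 for PARP10, −0.492 to 0.0311 for PARP12, −0.0716 to 0.292 for PARP3, −1.57 (without D replicate 3) to 0.0781 for PARP8 and −0.0169 to 0.191 for PARP1. In the interaction it gave −0.544 to 0.330 for PARP9, −0.72 to 0.125 for PARP10 and −0.483 to 0.107 for PARP14. Leaving out 1 replicate number from every group was added after the data were seen. Without number 1, D against C was 0.0393 for PARP12, 0.181 for PARP14 and −0.0015 for PARP1. Without number 2, I against C was 5.93 for PARP9 (5.30 with all libraries), DI against I was 0.026 for PARP11, and the interaction was −0.432 for PARP9, 0.38 for PARP10 and 0.0278 for PARP14. Without number 3, DI against I was 0.0259 for DTX3L, D against C was 0.301 for PARP10 and the interaction was 0.11 for PARP14.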
